A study of Mus musculus with 12 samples.

Results

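Neat1 and Malat1, neighbouring genes for long noncoding RNAs that stay in the nucleus, are described here by their occupancy by RNA polymerase II (Pol II) in epithelium of the mouse duodenum. They are 2 of the 6429 genes in each of the authors' deposited tables, and were picked by symbol. The pair was proposed with the values of these tables in view, so its own values are a description and carry no test. Pol II was measured by chromatin immunoprecipitation and sequencing (ChIP-seq), in which DNA bound by the protein is recovered with an antibody and counted. The labels list 12 samples, with 9 Pol II libraries and 3 inputs. There are 3 Pol II libraries each from villus cells of wild-type (WT) adults, crypt cells of WT adults, and villus cells of adults with the genotype Hnf4αγ DKO, a double knockout of the transcription factors HNF4A and HNF4G. The DKO mice received 50 mg/kg tamoxifen per day on 2 consecutive days and were killed 1 day after the last injection, and the WT mice received the oil vehicle alone. All tissue was released in 3 mM EDTA, for 35 minutes from WT mice and 25 minutes from DKO mice, and villi were held back by a 70 µm filter that crypts passed. Genotype, tamoxifen and EDTA time therefore cannot be told apart. Strain, sex, the Cre driver and whether animals were pooled are not given in the sources used here.

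Neat1 RNA is the scaffold of paraspeckles, nuclear bodies that hold RNA-binding proteins and some RNAs. It is made in a short and a long form from the same start, and the long form is the one that builds the body. Malat1 RNA gathers in nuclear speckles, which store splicing factors, and a small tRNA-like RNA, mascRNA, is cut from its 3′ end. Both genes are transcribed heavily by Pol II in many tissues. Crypts of the intestine hold its stem and dividing cells, and villi hold differentiated cells, mostly absorptive enterocytes.

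The locus and the windows over which the authors counted were examined first, because they set what a Pol II value at these genes can hold. In the authors' coordinates (mm9, per the submitters' processing notes) the promoter window of Malat1 ran on chromosome 19 from 5802371 to 5802772. The long Neat1 transcript, NR_131212, had its promoter window from 5845177 to 5845578, and the short one, NR_003513, from 5845179 to 5845580. These Neat1 windows shared 400 of their 402 bases, so counts at the start of Neat1 cannot be assigned to one form. Both genes are on the minus strand, with inferred start sites 42806 bp apart. The gene body windows ran from 5824210 to 5845828 for long Neat1 (21619 bp), from 5841796 to 5845830 for short Neat1 (4035 bp) and from 5795190 to 5803022 for Malat1 (7833 bp). A stretch of 21187 bp lay between the body windows of the genes.

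The gene body windows of both genes reached 350 bp upstream of the start site and contained the whole promoter window. The promoter window made up 1.86% of the body window of long Neat1, 9.96% of that of short Neat1 and 5.13% of that of Malat1. This held for all minus-strand transcripts in the files: in 21190 of 21190 the body window ended 350 bp before the start site and held the promoter window. On the plus strand it began 350 bp after the start in 19858 of 19858, and in 0 of these did it hold the promoter window. A ratio of promoter to body counts at Neat1 or Malat1 thus has the promoter reads on both sides, and it does not compare like with like between strands. The windows of Neat1 overlapped those of no other gene. The body window of Malat1 contained the promoter window of mascRNA, from 5795680 to 5796081, and read pairs were counted for every window they overlapped, without an option for strand.

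**Figure D1:**
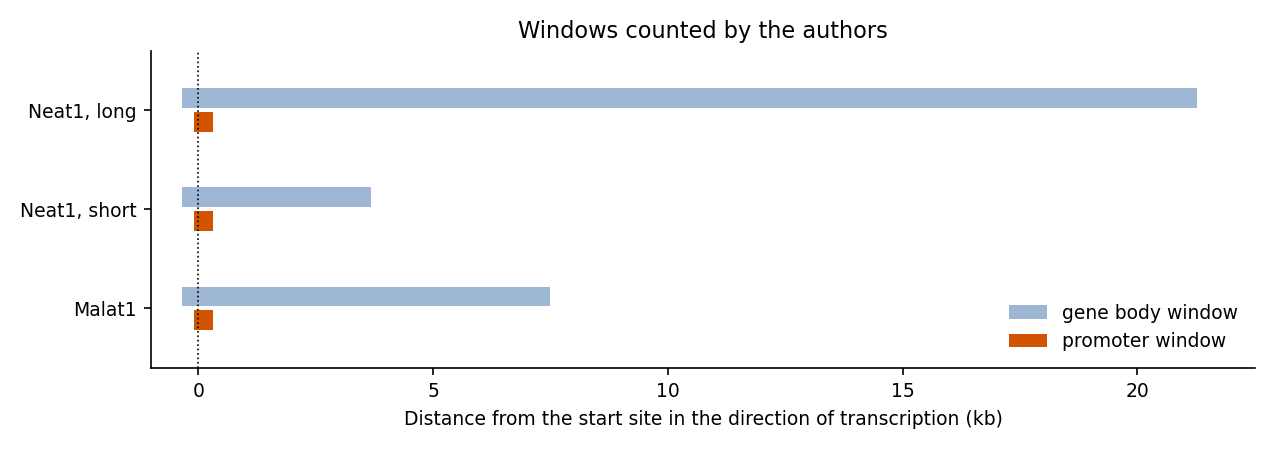
Promoter windows (orange) and gene body windows (blue) of long Neat1, short Neat1 and Malat1, by distance from the inferred start site in kb along the direction of transcription. Each body window begins 350 bp before the start site and contains the promoter window of 402 bp.

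The promoter of Malat1 is shown because it spans the start site, around which the authors placed the promoter window. The RefSeq table of promoters (build GRCm38.p6) has this stretch of 300 bases at chr19:5802623-5802922 on the minus strand, with 250 bases before the start and 50 after it. Capitals mark the motif matches described next.
Malat1 promoter: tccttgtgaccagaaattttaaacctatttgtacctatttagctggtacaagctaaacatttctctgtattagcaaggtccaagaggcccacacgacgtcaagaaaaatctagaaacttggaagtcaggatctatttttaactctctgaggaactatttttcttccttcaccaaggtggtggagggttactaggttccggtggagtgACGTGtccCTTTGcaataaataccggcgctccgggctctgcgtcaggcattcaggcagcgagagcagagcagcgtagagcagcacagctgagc

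Motifs were searched on both strands, and their shares were taken over 32851 RefSeq promoters of the same length. ACGTG, the core of the hypoxia response element, was found once, at positions -43 to -39 from the start, and 19.6% of promoters held it. CAAAG, the core of an HNF4 site, was found once, on the opposite strand at -35 to -31, and 53.9% held it. The longer HNF4 motif CAAAGTCCA, which contains CAAAG, had no match, and 0.475% of promoters held it. Nor was there a match for TATAAA (13.6% of promoters), CCAAT (37.4%), GCGTG (32.4%), GGGCGG (35.7%), TGACTCA (5.20%), TGACGTCA (1.79%) or TTCNNGAA (8.52%). Absence of a match says only that these letters are not in the window. The stretch was 47.0% G and C, against a median of 52.7% over all promoters.

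The values below come from the authors' deposited tables in DESeq2 format. The mean signal there averages size-factor normalised counts over the libraries, not per length, and the window counted is not stated, so levels were compared between groups and not between genes. No value per library could be used, and the spread over libraries is known only through the standard errors of the authors' fit. In the authors' deposited table Pol II at the targeted genes was not lower in the libraries labelled DKO: on the log2 scale WT over labelled-DKO villus was -0.54 ± 0.14 (SE) at Hnf4a and -1.45 ± 0.22 at Hnf4g. The directions given for labelled-DKO villus rest on that label. Of 13 enterocyte markers 12 were in the authors' deposited tables, and all 12 were called higher in WT villus than in crypt and than in labelled-DKO villus, with medians of 1.60 and 2.41. These calls were made for 18.6% and 22.4% of all genes. Of 13 crypt markers 5 were present and all 5 were called higher in crypt (18.8% of all genes were). The crypt genes Lgr5, Olfm4 and Mki67 were among those outside the tables.

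Pol II signal at both genes was higher in villus than in crypt. The mean signal of each group was rebuilt from the overall mean and the fold changes, taking the groups as equal in size. At Neat1 it was 985 normalised counts in WT crypt and 2452 in WT villus, a 2.49-fold difference (95% interval 1.73 to 3.59). In the authors' deposited table this was a log2 fold change of 1.32 ± 0.27, with a DESeq2 adjusted p of 1.09e-05. At Malat1 the rebuilt signal was 556 in WT crypt and 979 in WT villus, a 1.76-fold difference (1.30 to 2.38). The authors' deposited table gives a log2 fold change of 0.82 ± 0.22 and a DESeq2 adjusted p of 0.00131. The intervals of the genes overlapped.

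Both genes were thus called higher in villus, a call made for 18.6% of all genes (37.4% in either direction), and nothing is read from it since the pair was chosen with these values known. Only 100 of 6429 genes had a larger fold change of villus over crypt than Neat1, and 358 had a larger one than Malat1. The median over all genes was -0.04. In tissue of mixed cells, more Pol II per cell and more cells of a type with high occupancy cannot be told apart. The summed signal of the 12 enterocyte markers moved the same way, from 6919 in crypt to 19156 in WT villus. Its part in the values of Neat1 and Malat1 between villus and crypt was not tested.

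Labelled-DKO villus in turn had more Pol II signal at both genes than WT villus. The rebuilt signal of Neat1 was 4614 in labelled-DKO villus against 2452 in WT villus, a 1.88-fold difference (95% interval 1.30 to 2.71). In the authors' deposited table WT over labelled-DKO villus had a log2 value of -0.91 ± 0.27, with a DESeq2 adjusted p of 0.00209. Malat1 had 1694 in labelled-DKO villus against 979 in WT villus, 1.73-fold (1.28 to 2.34). The authors' deposited table gives -0.79 ± 0.22 and a DESeq2 adjusted p of 0.00118. Higher signal in labelled-DKO villus was called for 29.5% of all genes (51.9% in either direction), and nothing is read from the call at the pair. A lower value than that of Neat1 was found at 187 genes and a lower value than that of Malat1 at 299, and the median of all genes was -0.08.

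The markers of other cell types did not move as one between the genotypes, and their part in the values of Neat1 and Malat1 was not tested. The 12 enterocyte markers, all called lower in labelled-DKO than in WT villus, summed to 5882 in labelled-DKO villus and 6919 in crypt, but they split in labelled-DKO villus over crypt. There Krt20, a keratin, and Fabp1, a fatty acid binding protein, were called higher, at 1.13 ± 0.28 and 0.94 ± 0.26, while 3 were called lower (Apoa4, Apob and Mttp, of lipid export) and 7 neither way. Of all genes 6.41% were called higher and 7.19% lower in that comparison. It was derived from the deposited ones with the largest standard error that independent libraries allow, and a smaller error could call more genes. Of those called neither way, Sis (-1.34 ± 0.54), Alpi, Fabp2, Lct and Slc5a1 had negative values, and Vil1 and Anpep positive ones. The median of the 12 was -0.79. Of the 5 crypt markers 3 (Pcna, Ccnd1 and Myc) were called higher in labelled-DKO villus, the direction of the pair, and 0 lower in the authors' deposited table (all genes: 29.5% higher, 22.4% lower). Their sum was 695 in crypt, 440 in WT villus and 599 in labelled-DKO villus.

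Of 10 secretory markers 6 were in the tables, with sums of 832 in crypt, 1085 in WT villus and 1157 in labelled-DKO villus, but none of the 6 had that order by itself. Muc2, the goblet cell mucin, had 347, 661 and 595, and Agr2, a chaperone of mucin folding, had 153, 97.1 and 202. Of 11 immune markers Cd68 and Cd74 were in the tables, and they went opposite ways. The macrophage marker Cd68 had 234 in crypt, 157 in WT villus and 354 in labelled-DKO villus, and Cd74, the invariant chain, had 115, 188 and 74.7. The 8 mesenchyme markers were not among the genes of the tables. Immediate early and stress genes, which can respond quickly to handling of tissue, were also read because EDTA time differed, and 11 of 16 were in the authors' deposited tables. There 9 had a call for villus over crypt, 7 a call for WT and 2 a call for labelled-DKO villus (all genes: 18.6%, 22.4% and 29.5%). Their sums were 1885 in crypt, 4278 in WT villus and 2778 in labelled-DKO villus. Egr1, an early response factor, had 52.5, 78.7 and 178, the order of groups seen at Neat1 and Malat1, and was alone in this among the 11. Fos had 204, 1000 and 509, Jun 134, 373 and 149, Junb 268, 884 and 351, and Klf4 117, 404 and 192, all highest in WT villus. Fabp1 and Mttp were singled out after their values were seen.

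The order of the levels was the same at both genes: WT crypt lowest, WT villus between, labelled-DKO villus highest. Labelled-DKO villus over crypt was computed by subtracting one deposited log2 value from the other, both of which use the WT villus libraries, with the largest standard error that independent libraries allow. It was 2.23 ± 0.38 at Neat1, a 4.68-fold difference (95% interval 2.79 to 7.86), and 1.61 ± 0.32 at Malat1, a 3.04-fold difference (1.98 to 4.67). Just 9 of 6429 genes had a larger value than Neat1 and 36 had a larger value than Malat1, with a median of all genes of 0.0026. By this measure 6.41% of all genes were called higher in labelled-DKO villus than in crypt (7.19% lower, 13.6% in either direction). Both genes were among those called higher, and nothing is read from it, since the value is built from those that chose them.

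**Figure D2:**
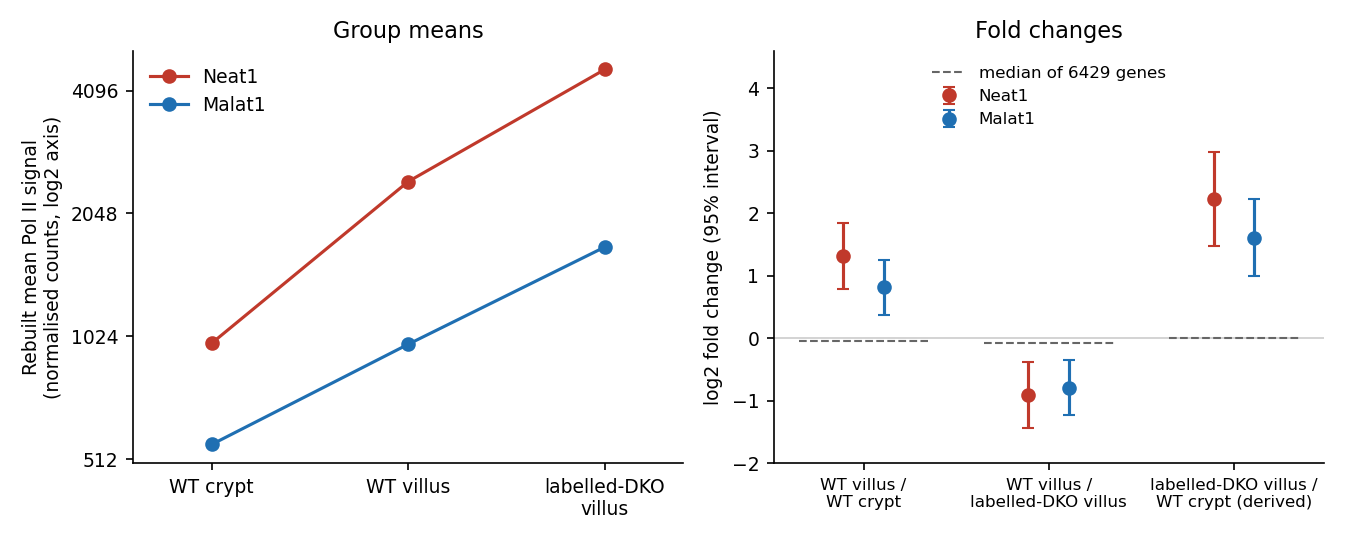
Left, rebuilt mean Pol II signal of Neat1 and Malat1 in normalised counts (log2 axis) in the 3 groups, without error bars. Right, their log2 fold changes with 95% intervals and the median of 6429 genes (dashed), where Neat1 has 1.32, -0.91 and 2.23 and Malat1 has 0.82, -0.79 and 1.61 from left to right.

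The spread between libraries, as the standard errors of the authors' fit give it, was wide at both genes for their signal. Standard errors of 0.27 at Neat1 and 0.22 at Malat1 for villus over crypt in the authors' deposited table compare with a median of 0.14 over all genes. For WT over labelled-DKO villus 95.2% and 87.9% of genes had a smaller one in the authors' deposited table. Counting noise alone, with 3 libraries per group, would give 0.031 and 0.044 for villus over crypt. Among 50 genes with a mean signal within a factor of 2 of that of Neat1, the median standard error for villus over crypt was 0.12 and 3 genes had a larger one. Among 484 such genes for Malat1 the median was 0.11 and 49 had a larger one. A coefficient of variation was computed back from the standard errors, with counting noise taken out, both comparisons averaged and 3 libraries per group assumed. It came to 22.8% at Neat1 and 18.6% at Malat1, against medians of 9.86% and 8.25% for genes of like signal. This value is implied by the authors' fit and is not an observed spread between libraries. Which libraries were high or low is not shown by the tables.

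The genes most like the pair were found by the distance between their 2 deposited log2 fold changes and those of each member, over the 3214 genes whose mean signal reached the median. The measure spans 3 groups only, and both fold changes share the WT villus libraries. Nearest to Neat1 were Ahnak, which encodes a giant scaffold protein, Serpinb1a, a protease inhibitor, Errfi1, a feedback inhibitor of the EGF receptor, Slc34a2, a phosphate transporter, and Anxa2, a membrane-binding annexin. Their distances were 0.28, 0.30, 0.32, 0.35 and 0.41, and Malat1 came sixth at 0.51. Nearest to Malat1 were Sema4b, a semaphorin, at 0.12, Errfi1 at 0.20, Trim25, a ubiquitin ligase of antiviral signalling, at 0.21, Ahnak at 0.23 and Cib1, a calcium-binding protein, at 0.25, while Neat1 had rank 34. Errfi1 and Ahnak were thus near both. In the authors' deposited tables Ahnak had 1.05 ± 0.29 for villus over crypt and -0.82 ± 0.29 for WT over labelled-DKO villus. Errfi1 had 1.02 ± 0.25 and -0.81 ± 0.25 in the authors' deposited tables. Slc34a2 and Cib1 were not called between the genotypes, with DESeq2 adjusted p-values of 0.280 and 0.0891 in the authors' deposited table.

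**Figure D3:**
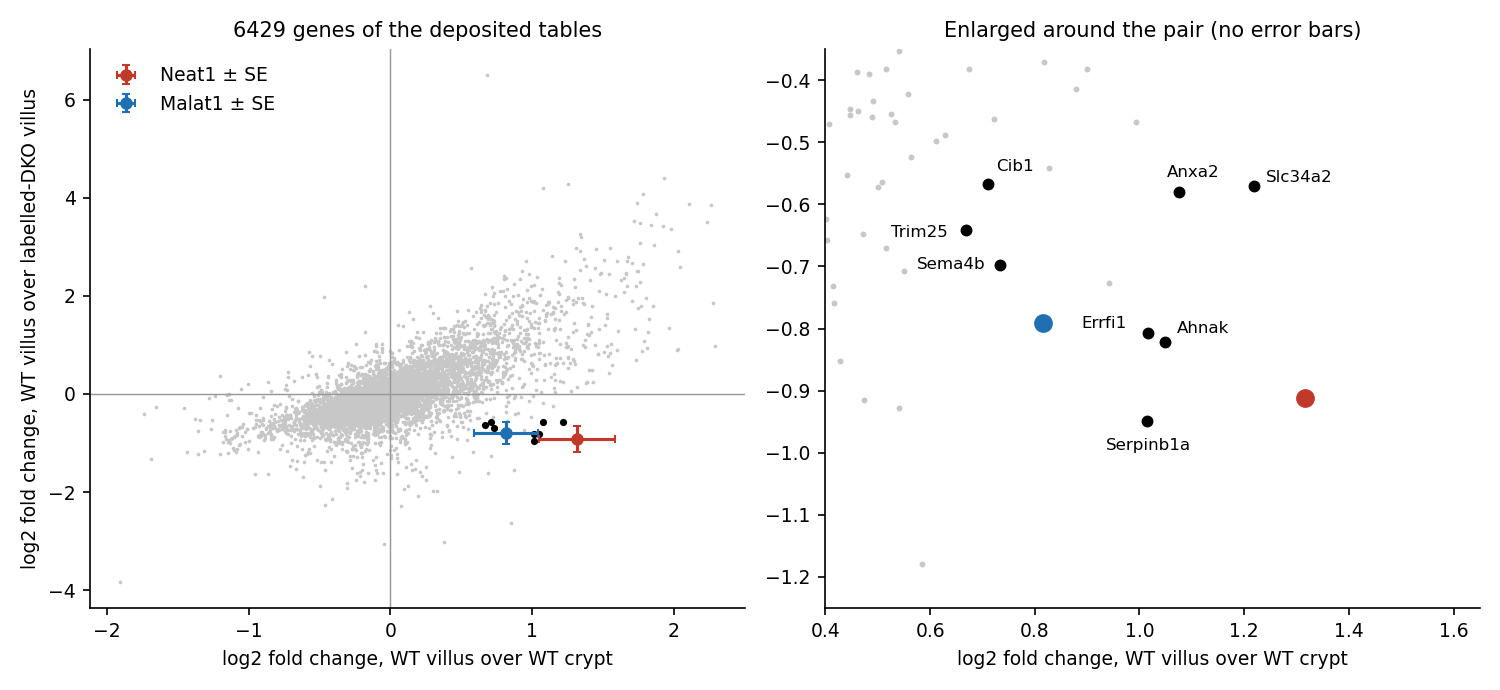
Log2 fold changes of WT villus over crypt (x) and of WT over labelled-DKO villus (y) for 6429 genes, which share the WT villus libraries. Left, all genes, with Neat1 (red) at 1.32 and -0.91 and Malat1 (blue) at 0.82 and -0.79 with SE bars; right, enlarged, with the nearest genes in black.

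Genes for proteins of paraspeckles, the bodies built on Neat1, were mostly called higher in crypt, where Neat1 was lowest. Of 33 listed genes 19 were in the authors' deposited tables. Of these 15 were called higher in crypt, 1 higher in villus and 3 neither way, with a median log2 fold change of -0.38. Over all genes 18.8% were called higher in crypt and 18.6% higher in villus, and the median was -0.04. Sfpq, an RNA-binding protein of the paraspeckle core singled out after its values were seen, had -0.55 ± 0.14 in the authors' deposited table, the opposite sign to Neat1. The largest changes were at Hnrnpa1, which binds pre-mRNA, with -0.80 ± 0.22, and at Cirbp, a cold-induced RNA-binding protein, with 0.69 ± 0.15 in the authors' deposited table. Nono and Pspc1, the partners of Sfpq, were outside the tables.

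Between WT and DKO labels 13 of the 19 paraspeckle genes were called higher in labelled-DKO villus, 2 lower and 4 neither way (authors' deposited table), with a median of -0.44. Over all genes the shares were 29.5% and 22.4%, and the median was -0.08. The direction of most of them was here the same as that of Neat1. Tardbp, which encodes the RNA-binding protein TDP-43, had -0.71 ± 0.15 for WT over labelled-DKO villus and -0.66 ± 0.15 for villus over crypt in the authors' deposited tables. Their summed signal was 3984 in crypt, 3185 in WT villus and 3982 in labelled-DKO villus, so it was lowest in WT villus, where Neat1 lay between its other levels.

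Genes for nuclear speckle proteins, which share that body with Malat1 RNA, were called higher in crypt and in labelled-DKO villus more often than lower. Of 35 listed genes 32 were in the authors' deposited tables, and 16 were called higher in crypt than villus, 1 lower and 15 neither way, with a median of -0.33 (18.8% of all genes were called higher in crypt and 18.6% lower). Higher signal in labelled-DKO villus was called for 19, lower for 2 and neither for 11 in the authors' deposited table, with a median of -0.37 (29.5% of all genes were called higher there and 22.4% lower). U2af1, which reads the end of introns, had -0.76 ± 0.09 and -0.56 ± 0.09 in the authors' deposited tables. Sf3b1, a subunit of the U2 particle, had -0.49 ± 0.12 and -0.65 ± 0.12 there, and the helicase gene Ddx39b had -0.62 ± 0.08 and -0.45 ± 0.08 in the authors' deposited tables. Srsf5, a splicing factor, had the opposite signs, 0.55 ± 0.15 and 0.45 ± 0.14 in the authors' deposited tables. So did Srsf2, with 0.40 ± 0.21, not called, and 0.69 ± 0.21 there. Ccnl1, a cyclin of speckles, had 0.01 ± 0.18 for villus over crypt and -0.75 ± 0.17 for WT over labelled-DKO villus in the authors' deposited tables.

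Genes for the 3′ processing of these RNAs were mostly outside the tables. Of 16 listed, which include subunits of RNase P, 6 were in the authors' deposited tables and 0 were called between villus and crypt by the DESeq2 test. Of all genes 37.4% were called there in either direction. Between the genotypes Pop5 was called higher in labelled-DKO villus, with -0.58 ± 0.18, and Pop4 lower, with 0.35 ± 0.16, in the authors' deposited table (all genes: 29.5% higher, 22.4% lower). Both encode RNase P proteins. Of 14 factors reported to act on Neat1 transcription 9 were in the tables. Of these 9, 3 had a call for villus and 2 a call for crypt in the authors' deposited tables, where 3 also had a call for WT and 4 a call for labelled-DKO villus (all genes: 18.6%, 18.8%, 22.4% and 29.5%). Hsf1, the heat shock factor, had 0.48 ± 0.11 and 0.78 ± 0.11 in the authors' deposited tables, and Nfe2l2, the oxidative stress factor, had 0.56 ± 0.13 and 0.65 ± 0.13. Atf4, another factor of this list, had 0.59 ± 0.20 and 0.50 ± 0.20 there. Their signs between the genotypes were opposite to those of Neat1. Myc, a transcription factor of cell growth that is also among the crypt markers, had -1.06 ± 0.18 and -0.67 ± 0.18 in the authors' deposited tables, the sign of Neat1 between the genotypes and the opposite one for villus over crypt. The hypoxia factor genes Hif1a and Epas1, singled out after their values were seen, had -0.57 ± 0.16 and -0.42 ± 0.09 for WT over labelled-DKO villus in the authors' deposited table, the sign of Neat1. Neither had a call for villus or crypt in the authors' deposited table, with -0.29 ± 0.16 and -0.01 ± 0.09.

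**Figure D4:**
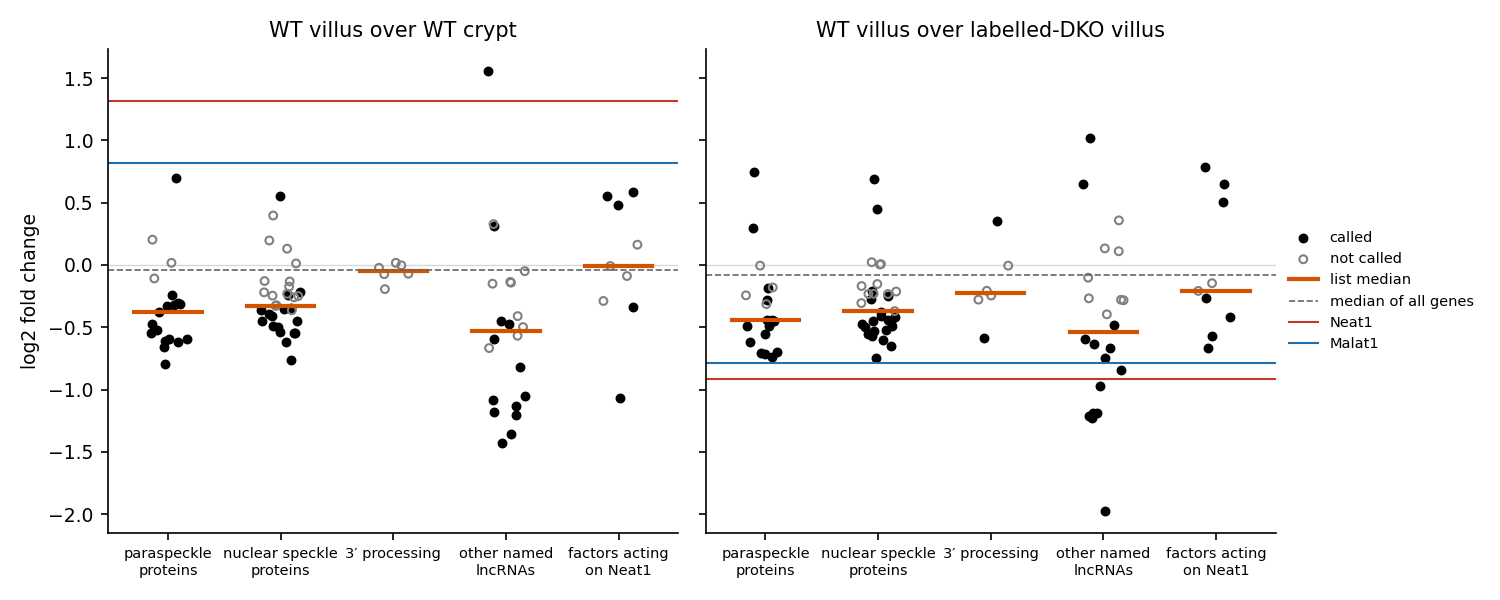
Log2 fold changes of listed genes in both comparisons (filled, called at adjusted p under 0.05; open, not called), with each list's median (orange), the median of all genes (dashed), Neat1 (red line) and Malat1 (blue line). The paraspeckle medians are -0.38 and -0.44 and the nuclear speckle medians -0.33 and -0.37, while Neat1 lies at 1.32 and -0.91.

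Among other well-known long noncoding RNA genes more were called higher in crypt than in villus. Of 54 on the list 22 were in the authors' deposited tables, where 11 were called higher in crypt, 2 higher in villus and 9 neither way, with a median of -0.53 (all genes: 18.8% higher in crypt, 18.6% in villus). Higher signal in labelled-DKO villus was called for 12 of them, lower for 2 and neither for 8 in the authors' deposited table, with a median of -0.54 (all genes: 29.5% higher, 22.4% lower). Gas5, Snhg1 and Snhg5, hosts of small nucleolar RNAs, had -1.43 ± 0.26, -1.36 ± 0.30 and -1.20 ± 0.36 for villus over crypt in the authors' deposited table, the opposite sign to Neat1 and Malat1. For WT over labelled-DKO villus they had -1.19 ± 0.26, -1.21 ± 0.30 and -1.23 ± 0.36 in the authors' deposited table, the same sign as the pair. Mir22hg, the host of miR-22, had 1.55 ± 0.16 and 1.02 ± 0.16 in the authors' deposited tables, so it was higher in villus but lower in labelled-DKO villus. Gm15441 had 0.33 ± 0.22, not called, and -1.97 ± 0.21 in the authors' deposited tables. It is antisense to Txnip. ChIP-seq reads do not show which strand was being transcribed, so where such partners overlap their Pol II cannot be told apart.

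RefSeq lists 414 genes of the tables as long noncoding, 412 besides the pair. Villus had the higher signal by the call at 66, crypt at 49 and neither at 297 in the authors' deposited table, with a median of -0.04. Of all genes 18.6% were called for villus and 18.8% for crypt. A larger value of villus over crypt than that of Neat1 was found at 5 of the 412, and than that of Malat1 at 20. By genotype 86 were called higher in WT villus, 79 lower and 247 neither way in the authors' deposited table, with a median of 0.018, against 22.4% higher and 29.5% lower of all genes. A lower value than that of Neat1 was found at 18 and than that of Malat1 at 25. In labelled-DKO villus over crypt Gm15441 alone of the 412, at 2.30 ± 0.30, had a value above that of Neat1. Above Malat1 there was one more, Grin1os, at 2.03 ± 0.31. These were singled out after their values were seen. Overlap of the 412 with other genes was not examined. Signal at some of them may belong to a partner gene, so these ranks may set unlike genes side by side.

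The genes around the pair were read for a change shared along the locus. Within 500 kb of it 73 genes had windows, and 46 of them were in the authors' deposited tables. There 11 had a call for villus, 2 for crypt and 33 for neither. Of all genes 18.6% had the first call and 18.8% the second. By genotype 13 had a call for WT, 13 for labelled-DKO villus and 20 for neither in the authors' deposited table. Of all genes 22.4% had the call for WT and 29.5% that for labelled-DKO villus, so both counts by genotype lie near the background. The medians were 0.0047 and -0.06. The lowest value of WT over labelled-DKO villus among the 46 was -0.60, at Fam89b, above those of Neat1 and Malat1. In villus over crypt the highest was 1.10, at Slc25a45, below Neat1 and above Malat1.

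Within 100 kb there were 12 genes of the tables. Frmd8, the next gene upstream of Neat1, whose windows began 4896 bp from the Neat1 promoter window, had 0.44 ± 0.11 for villus over crypt and 0.34 ± 0.11 for WT over labelled-DKO villus in the authors' deposited tables. It was higher in villus, as the pair was, but lower in labelled-DKO villus. Slc25a45, a mitochondrial carrier gene, had 1.10 ± 0.22 and 1.82 ± 0.22 in the authors' deposited tables, with the sign of the pair in the first and the opposite in the second. Ehbp1l1 (0.43 ± 0.10 and 0.67 ± 0.10) and the potassium channel gene Kcnk7 (0.83 ± 0.17 and 0.73 ± 0.16) did likewise in the authors' deposited tables. Cdc42ep2, an effector of the GTPase CDC42, had 0.86 ± 0.21 and 0.12 ± 0.20, the second not called, in the authors' deposited tables. Fam89b had -0.28 ± 0.17, not called, and -0.60 ± 0.16 in the authors' deposited tables. Map3k11, a kinase gene, had 0.32 ± 0.14, not called, and 0.49 ± 0.14, and Pola2, of DNA polymerase alpha, had -0.24 ± 0.09 and -0.20 ± 0.09, the second not called, in the authors' deposited tables. Tigd3 (0.18 ± 0.23 and -0.28 ± 0.22), Dpf2 (-0.09 ± 0.14 and -0.20 ± 0.14) and Znrd2 (-0.20 ± 0.26 and -0.27 ± 0.26) were called in neither of the authors' deposited tables. None of the 12 was called both higher in villus than crypt and higher in labelled-DKO than WT villus. Of all genes 18.6% had the first call and 29.5% the second. The share with both was not computed, so nothing is read from this count.

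**Figure D5:**
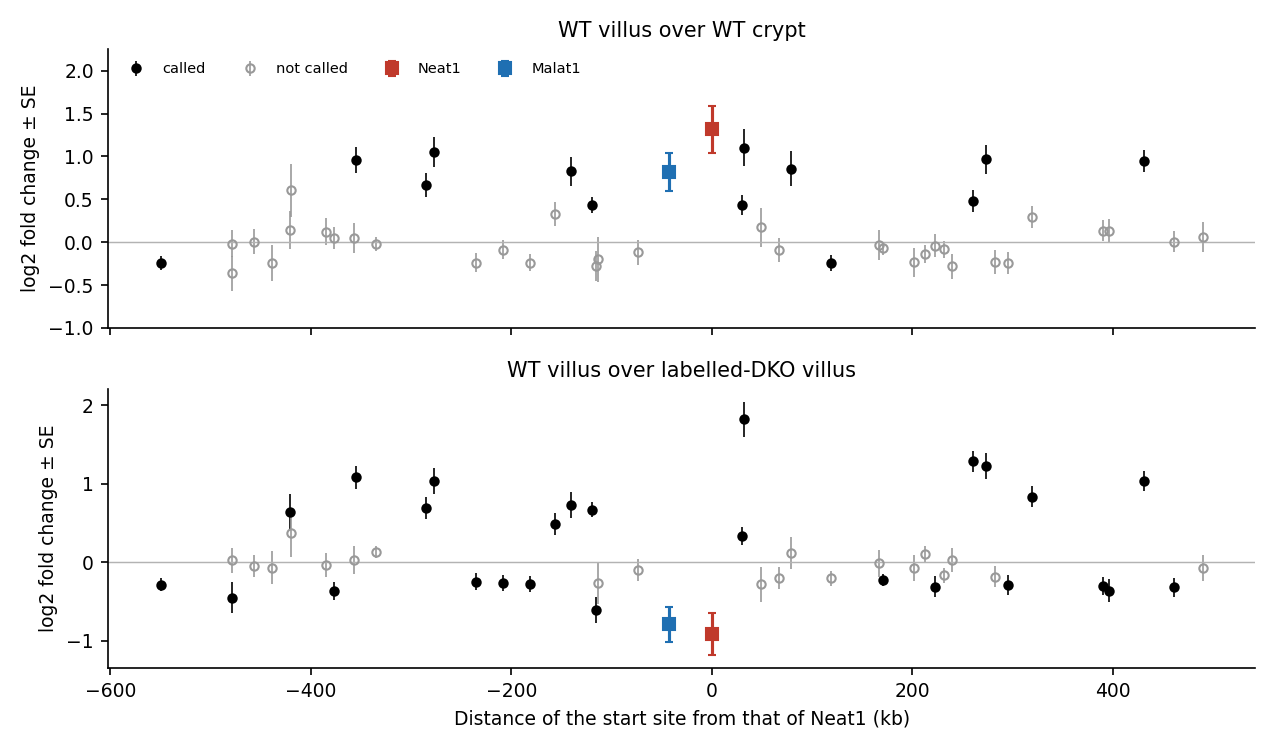
Log2 fold changes ± SE of 46 genes within 500 kb of the locus, by distance of their start site from that of Neat1 in kb (black, called; grey, not called), with Neat1 (red) and Malat1 (blue). Above, WT villus over crypt, where Slc25a45 is the highest neighbour at 1.10; below, WT over labelled-DKO villus, where the lowest neighbour is at -0.60 and the pair at -0.91 and -0.79.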

How the data were processed

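Pol II ChIP-seq of 9 libraries with 3 inputs was processed by the authors. Per the submitters' processing notes the tools included Bowtie2 2.2.6, SAMtools 0.1.19 and DESeq2 1.36.0, on mm9. Per the file headers, window counts were made with featureCounts 2.0.3 with duplicates skipped, a mapping quality threshold of 30, and no option for strand. The files name no count column, so the 18 columns could be tied to no sample and were not used, and the planned edgeR tests were not run. Depth per library was not analysed here.

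Per the file headers, the authors deposited for each gene a mean signal (normalised by size factors), a log2 fold change with its standard error, a Wald score, a p-value and a Benjamini-Hochberg adjusted p-value. They do not state which window was counted, the gene filter, or how many libraries entered the fit. The labels do not say whether libraries came from separate animals, so p-values measure only the spread between them.

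A gene was called at an adjusted p under 0.05. Group means and labelled-DKO villus over crypt were computed with pandas 2.3.3 and scipy 1.17.1. Genes within 500 kb and accessions were matched to RefSeq (GRCm38.p6), used for names only: 97.7% of body windows and 96.8% of promoter windows matched. Named genes were the pair, the 5 nearest in pattern to each, the largest called changes of each list and neighbours within 100 kb. Members and lists were chosen with earlier results of these data known.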

Additional observations from a re-analysis of the deposited data

How the results depend on the processing

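Of 26 checks of the fold changes of Neat1 and Malat1, 23 kept their direction and call, 3 no longer passed and 0 turned. All 3 failed only because a log2 fold change beyond 1 was required: Malat1 in villus over crypt (0.82), and Neat1 (-0.91) and Malat1 (-0.79) in WT over labelled-DKO villus. Centring each table on the median of all genes gave 0.86 for Malat1 in villus over crypt, and -0.83 for Neat1 and -0.71 for Malat1 between the genotypes. Under all other alternatives the fold changes were left as they were, so their direction could not turn. The highest adjusted p over the alternatives was 0.00581 for Neat1 and 0.00415 for Malat1, both between the genotypes. The rebuilt group means were centred in the same way, as an alternative chosen after seeing the data. They moved by less than the standard error of a fold change in 6 of 6 cases. That was fixed in advance, since the medians taken off, -0.04 and -0.08, were smaller than those errors.

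With a log2 fold change beyond 1 required, 0 paraspeckle and 0 nuclear speckle genes stayed called lower in WT villus in either table, against 15 and 13, and 16 and 19, since fewer genes can pass. Of the other list counts, 39 of 160 moved, either by over 1.5 times or to or from 0. The 160 include counts that could not move, such as those of the mesenchyme list, which had 0 genes in the tables. Within 250 kb of the locus 7 genes had calls for villus and 1 for crypt, and 7 were higher and 6 lower in WT than labelled-DKO villus, of 24 in the tables. Within 1000 kb 6 of 59 were called lower in villus than crypt, against 2 of 46 within 500 kb. That count thus depends on the distance chosen.

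No paired analysis was possible because single libraries have no named values, neither in the tables nor in the unnamed count columns. Leaving out replicates, other normalizations and other filters on window counts were not run either, and how far 1 library sets a value is not shown. Depth was not analysed here.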
